A study of Cricetiscus sungorus with 16 samples.

Results

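In ovaries of Siberian hamsters, 165 of 20370 detected transcript identifiers had their highest signal after 8 wk in short days. They were chosen from the measured values. Each value is the log2 intensity relative to the array's own 75th percentile, so that a value of 0 is the brightness which 25% of the spots exceed. The brightest probe stood for each identifier, provided that some group had it well above background on each of its 4 arrays. A transcript belongs to the set if its mean in 8-week short-day ovaries lay at least 1 (2-fold) above the mean of each of the other 3 groups. On every slide, its 8-week short-day array also had to be the highest of the 4. The array carried 33272 identifiers.

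Female hamsters were gestated and kept in short days (SD, 10 h of light) or long days (LD, 16 h of light), and their ovaries were collected at 3 or 8 wk. The groups were SD 8 wk, LD 8 wk, SD 3 wk and LD 3 wk, each with 4 hamsters. No genotype or drug distinguishes them, and both ovaries of a hamster were pooled as 1 RNA sample on 1 single-colour array, 16 arrays in all. The study asked how ovaries of each day length differ at each age and how they change between the ages. For the SD 8 wk samples the labels disagree on the hours of light, since titles and treatment fields give 16 h and descriptions 10 h. Titles and descriptions both name these samples SD. The descriptions were followed, and no other source used here could check the hours.

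Day length acts on reproduction in this seasonal breeder through the nightly secretion of melatonin, which is prolonged in short days and lowers the drive from the hypothalamus and pituitary to the gonads. Young raised in short days mature late. Their ovaries differ in histology from those of long-day animals, in which follicles grow to the antral stage and corpora lutea form after ovulation.

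The files pair no identifier with a gene symbol, so neither the roles of the transcripts nor the markers of ovarian cell types, lists of which had been prepared, could be examined. The array is a mouse array, and it was not tested whether each probe read the hamster counterpart of its transcript. In pooled whole ovaries, more cells of a type and more RNA per cell cannot be told apart. Each slide held 1 array of every group, and a group took the same place on all 4 slides (place 4 for SD 8 wk), so place and group cannot be told apart. On each array 58.0% to 75.7% of probes exceeded background clearly, no spot was saturated, and slide 1 had 661 to 1199 spots flagged as uneven per array, against 1 to 91 on the other slides. Arrays of the same slide deviated together from their group means, and results are therefore also given within slides.

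The 8-week short-day ovary held far more such transcripts than any other group. The same rule found 11 transcripts highest in LD 8 wk, 2 in SD 3 wk and 1 in LD 3 wk. Turned round, it found 37 transcripts lowest in SD 8 wk, 4 in LD 8 wk, 4 in SD 3 wk and 5 in LD 3 wk. These counts follow from the rule and carry no test.

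The margin over the next group differed widely among the 165 transcripts. The gap between the SD 8 wk mean and the highest other group mean ran from 1.0 to 5.96 on the log2 scale, with a median of 1.49 and quartiles at 1.20 and 2.08. In 88 transcripts (53.3%) the gap was under 1.5, in 46 (27.9%) it was at least 2, and in 19 (11.5%) at least 3. The difference between SD 8 wk and LD 8 wk had a median of 1.59 and reached 6.07. The difference between SD 8 wk and SD 3 wk was wider, with a median of 1.89 and a maximum of 7.27. The plot of all members by array shows the largest gaps at the top.

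**Figure D1:**
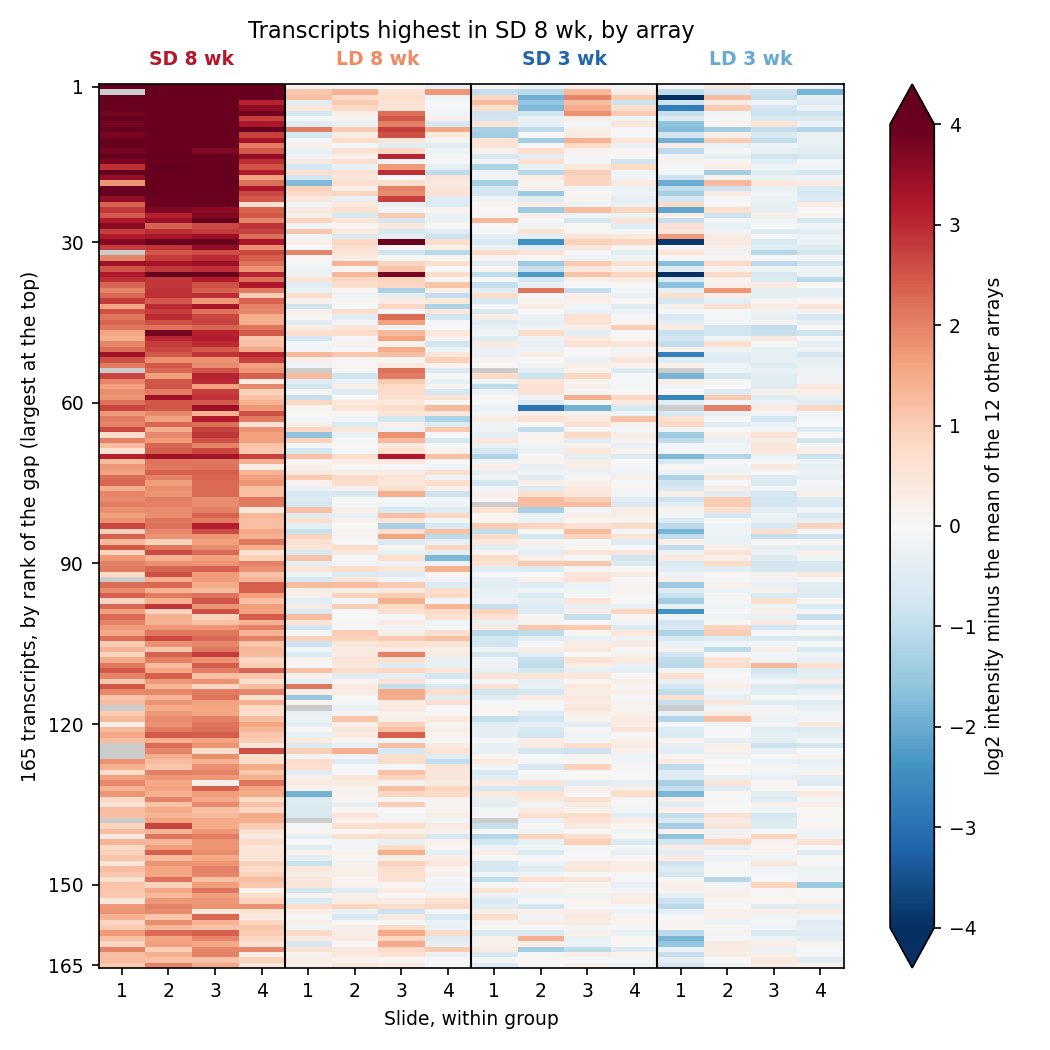
Log2 intensity of the 165 transcripts on each of the 16 arrays, minus the mean of the 12 arrays other than SD 8 wk, with transcripts ordered by the gap and colours saturating at 4 and -4. Columns are slides 1 to 4 within each group, and grey cells are spots flagged as outliers. The 4 SD 8 wk columns are the reddest, and in the LD 8 wk block the slide 3 column is redder than its neighbours.

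The edge of the set is a matter of degree. The gaps of the 2 members nearest the margin were 1.00006 and 1.00186. Just outside lay transcripts with gaps of 0.997 and 0.994. A further 308 transcripts met the condition on slides with a gap between 0.5 and 1, and 15 met the margin but not the condition on slides. Over all detected identifiers, 0.884% had an SD 8 wk mean at least 1 above the 3 other means, on which the choice of members rests.

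Most members stood clear of every other hamster. In 114 of the 165 (69.1%), all 4 SD 8 wk arrays lay above all 12 other arrays, against 1.58% of the 20370 detected identifiers. That contrast chose the members, so the share is a description. All 19 transcripts with a gap of at least 3 were among them. On the arrays taken slide by slide, the median gap to the highest other array was 1.48, 1.68, 1.37 and 1.09 on slides 1 to 4, and the smallest gap in any member was 0.02, on slide 3.

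Averaged over the 165 transcripts, SD 8 wk arrays stood apart and the other 3 groups lay close together. The mean was 0.997, 1.37, 1.46 and 0.61 on slides 1 to 4 in SD 8 wk ovaries, a group mean of 1.11 ± 0.39 (SD, n = 4). In LD 8 wk ovaries it was -1.02, -0.85, -0.43 and -1.01, a group mean of -0.83 ± 0.28. At 3 wk it was -1.24, -1.28, -0.84 and -1.03 in SD ovaries (-1.10 ± 0.20), and -1.70, -1.03, -1.30 and -1.32 in LD ovaries (-1.34 ± 0.27). Only the SD 8 wk arrays were above 0. SD 3 wk arrays overlapped those of LD 8 wk and of LD 3 wk, while the lowest LD 8 wk array (-1.02) lay just above the highest LD 3 wk array (-1.03). Within slides, where the rule fixes the direction, SD 8 wk exceeded LD 8 wk by 2.02, 2.22, 1.89 and 1.62, and SD 3 wk by 2.24, 2.65, 2.30 and 1.64.

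**Figure D2:**
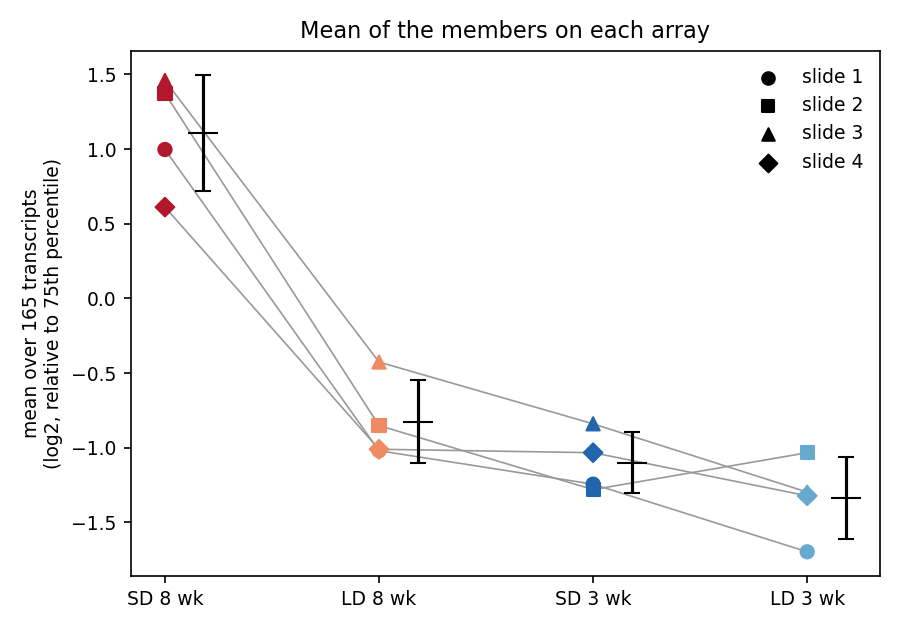
Mean of the 165 transcripts on each array (log2, scaled to the array's 75th percentile) in the 4 groups, with a symbol for each slide, grey lines joining arrays of the same slide, and black bars for the group mean and SD over 4 arrays. SD 8 wk arrays run between 0.61 and 1.46, above all other arrays, and the slide 4 array is the lowest of them.

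Arrays within the SD 8 wk group differed in how high the set was. The slide 4 array had the lowest SD 8 wk value in 101 members (61.2%), against 22.4% of the 20205 other detected identifiers. The slide 3 array had the highest in 81 members and the slide 4 array in 13. On this slide 4 array 58.4% of probes were well above background, the lowest share on its slide. The LD 8 wk, SD 3 wk and LD 3 wk arrays of slide 4 had 65.2%, 69.0% and 63.6%. The 75th percentile of the SD 8 wk array of slide 4, 925, lay within the range of all arrays (320 to 1055). The SD 8 wk array of slide 1 also had 58.4% of probes well above background. That array was the lowest of SD 8 wk in 20.6% of members, against 39.2% of the other detected identifiers. Each SD 8 wk hamster was on its own slide, so hamster, slide and array cannot be told apart here. What set the SD 8 wk array of slide 4 lower was not tested. The median SD between the 4 arrays of a member was 0.54 in SD 8 wk, 0.48 in LD 8 wk, 0.39 in SD 3 wk and 0.39 in LD 3 wk.

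Of the 12 other arrays, the LD 8 wk array of slide 3 was most often the highest. This was so in 67 members, while each of the remaining 11 arrays was highest in 1 to 21. The array with 21 was the SD 3 wk array of slide 3. The LD 8 wk array of slide 3 reached the lowest SD 8 wk array or more in 30 members. The other arrays did so in 1 to 7 members each. Neither these counts nor those of the highest of the 12 were compared with shares over all identifiers. They describe members that the rule chose from the same values. Among the 4 LD 8 wk arrays it was the highest in 79 members (47.9%), against 26.4% of the other detected identifiers. On slide 3 the SD 8 wk array exceeded that LD 8 wk array by 1.89 on average, a direction that the rule fixes on every slide. Slide 3 also had the highest member mean within SD 8 wk (1.46) and within SD 3 wk (-0.84), but not within LD 3 wk (-1.30). Whether the hamster or the slide set the LD 8 wk array of slide 3 higher was not tested.

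The order of the other 3 groups was similar in many members. LD 8 wk was the second highest group in 108 members (65.5%), SD 3 wk in 46 (27.9%) and LD 3 wk in 11 (6.67%). LD 3 wk was the lowest group in 109 (66.1%), SD 3 wk in 31 and LD 8 wk in 25. These means were often close. In 76 members (46.1%) the 3 lay within 0.5 of each other and in 131 (79.4%) within 1, with a median range of 0.58. The order and the closeness were not compared with those over all identifiers, so they are not shown to be particular to the members.

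Low signal in the other groups was uncommon among the members, whose shares were not compared with those over all identifiers. All 165 were well above background on the 4 SD 8 wk arrays, 143 on the 4 LD 8 wk arrays, 146 on the 4 SD 3 wk arrays and 140 on the 4 LD 3 wk arrays, and 134 (81.2%) on all 16. The remaining 31 were below this limit on at least 1 array, and 13 passed the detection filter through SD 8 wk alone. No member was without signal on all 12 other arrays. In 6 members, 2 at SD 3 wk and 5 at LD 3 wk, no array of the group was well above background, so that only a bound can be given. Against a floor near the lowest signal well above background in each array, SD 8 wk was higher than these 7 group means by lower bounds of 2.52-fold to 12.1-fold. The floor at LD 3 wk differed slightly between members (-5.49 and -5.51), so the bounds are approximate.

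The largest gap belonged to NM_001033364, a transcript near the same low level in every group but SD 8 wk. Its intensity was 2.95, 3.40, 3.77 and 1.60 in SD 8 wk ovaries (2.93 ± 0.94, n = 4) and -2.99, -3.14, -3.01 and -3.41 in LD 8 wk ovaries (-3.14 ± 0.19). At 3 wk it was -2.99, -3.36, -2.92 and -3.19 in SD ovaries and -3.17, -2.65, -3.10 and -3.22 in LD ovaries. SD 8 wk arrays lay above all others by several log2 units, and the other 3 groups overlapped. The SD 8 wk mean was 67.1-fold the LD 8 wk mean, a difference of 6.07 overall and of 5.94, 6.54, 6.78 and 5.02 within slides. In long days the transcript differed between 8 and 3 wk by -0.11 (SE 0.33, limma adjusted p = 0.976).

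NM_013547 had the second largest gap, 5.83, but was graded over the other groups. Its intensity was 4.04, 4.35 and 3.90 on slides 2 to 4 in SD 8 wk ovaries, the slide 1 spot (3.57) being flagged as an outlier. In LD 8 wk ovaries it was -1.97, -1.67, -2.51 and -1.32. The SD 8 wk arrays did not overlap the LD 8 wk arrays. The gap of 5.83 includes the flagged spot, as the rule does, and without it the difference between the means was 5.96 (62.3-fold). At 3 wk it was -4.01, -4.12, -1.76 and -2.81 in SD ovaries and -4.07, -3.70, -3.88 and -4.91 in LD ovaries. It also rose in long days, by 2.27 (SE 0.44, limma adjusted p = 0.00847), with every LD 8 wk array above every LD 3 wk array.

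The comparison of LD 8 wk with LD 3 wk asks whether the transcripts also changed with age in long days. The rule put both groups at least 1 below SD 8 wk and did not use the difference between them. The members compared here and at 3 wk include the 13 that passed the detection filter through SD 8 wk alone. They also include 5 with no LD 3 wk array well above background, whose differences are uncertain. Neither comparison was repeated without these members. Of the 165 members, 18 (10.9%) rose in long days and 0 fell by limma at an adjusted p under 0.05, against 1.84% higher and 2.62% lower among the 20366 identifiers tested. At an unadjusted p under 0.05, 43 members were higher and 1 was lower, and 6.88% of all identifiers were higher. The change was positive in 136 members (82.4%), against 49.0% of all identifiers, and its median was 0.42 in the members and -0.01 over all. The average over members was higher in LD 8 wk than in LD 3 wk on each slide, by 0.68, 0.18, 0.87 and 0.31.

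With slide as a block, 24 members (14.5%) rose in long days and 0 fell, against 4.57% higher and 6.65% lower among all identifiers, and all 18 were among the 24. The count without the block depended on the arrays used. It was 5 without slide 3 and 2 without slide 4, against 55 and 11 identifiers higher in all, and 11 without the LD 3 wk hamster of slide 4. Leaving out slide 1 or slide 2 gave 14 members each. Without the LD 8 wk hamster of slide 3 the count was 13.

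The 18 transcripts that rose in long days did so by 0.84 to 3.16, with a median of 1.28 and limma adjusted p between 0.000164 and 0.0427. The members' median SE was 0.36. In short days the same transcripts had a median age difference of 2.60. Among 420 other transcripts whose SD 8 wk mean was at least 1 above SD 3 wk, 147 (35%) rose in long days, with a median of 0.79 and a median SD difference of 1.24. Many of these are outside the set because LD 8 wk was near SD 8 wk, so the 2 shares are given side by side with no test.

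**Figure D3:**
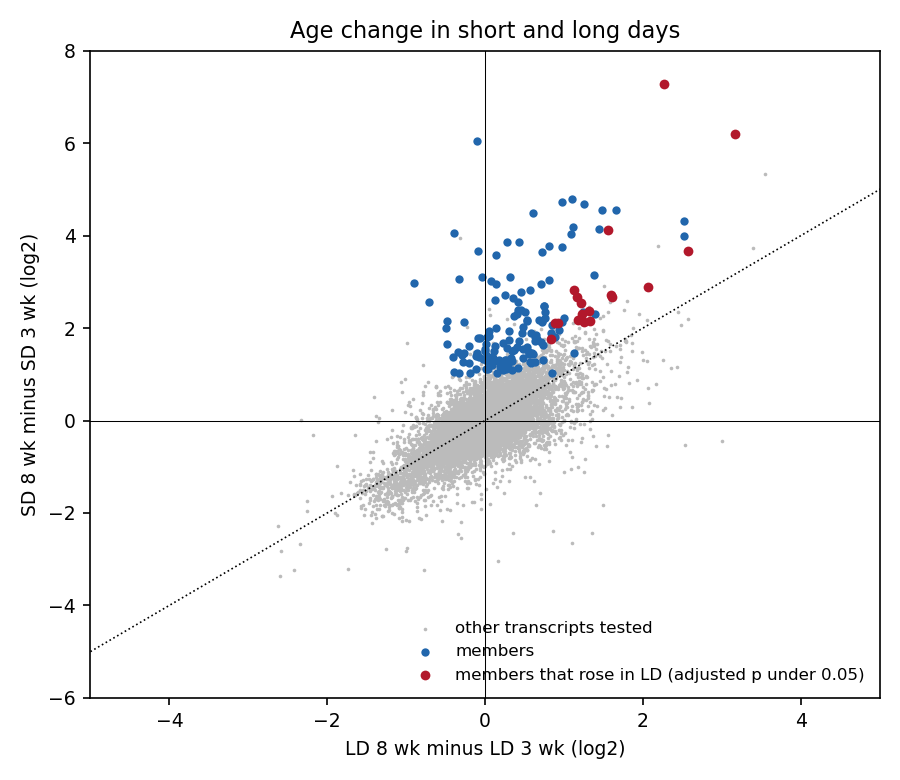
Difference between SD 8 wk and SD 3 wk (vertical axis, log2) against that between LD 8 wk and LD 3 wk (horizontal axis, log2) for the 20366 transcripts tested, with members in blue, members that rose in long days in red, and a dotted line where both are equal. The members lie above the line, which the choice of members largely fixes, and run from -0.90 to 3.16 on the horizontal axis.

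NM_001081372 had the largest rise in long days among the members. Its intensity was 5.67, 5.94, 6.12 and 4.90 in SD 8 wk ovaries and 2.07, 1.01, 2.78 and 1.56 in LD 8 wk ovaries. At 3 wk it was -1.29, -1.05, 0.26 and -0.05 in SD ovaries and -1.74, -1.37, -0.96 and -1.16 in LD ovaries. The 8-week groups did not overlap each other or the 3-week groups. LD 8 wk exceeded LD 3 wk by 3.16 (SE 0.39, 8.95-fold, limma adjusted p = 0.000627), and by 3.81, 2.38, 3.75 and 2.72 within slides.

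NM_021456 had the next largest, with a smaller gap to SD 8 wk of 1.59. Its intensity was 2.83, 3.12, 3.05 and 2.43 in SD 8 wk ovaries and 0.89, 0.37, 2.91 and 0.91 in LD 8 wk ovaries. The slide 3 hamster of LD 8 wk lay within the SD 8 wk range, and the other 3 LD 8 wk hamsters lay below it. At 3 wk it was -1.49, -0.32, -0.63 and -0.81 in SD ovaries and -2.09, -1.45, -0.53 and -1.13 in LD ovaries. LD 8 wk exceeded LD 3 wk by 2.57 (SE 0.45, 5.94-fold, limma adjusted p = 0.00414), with no overlap, and by 2.75 with an adjusted p of 0.0708 without slide 4.

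**Figure D4:**
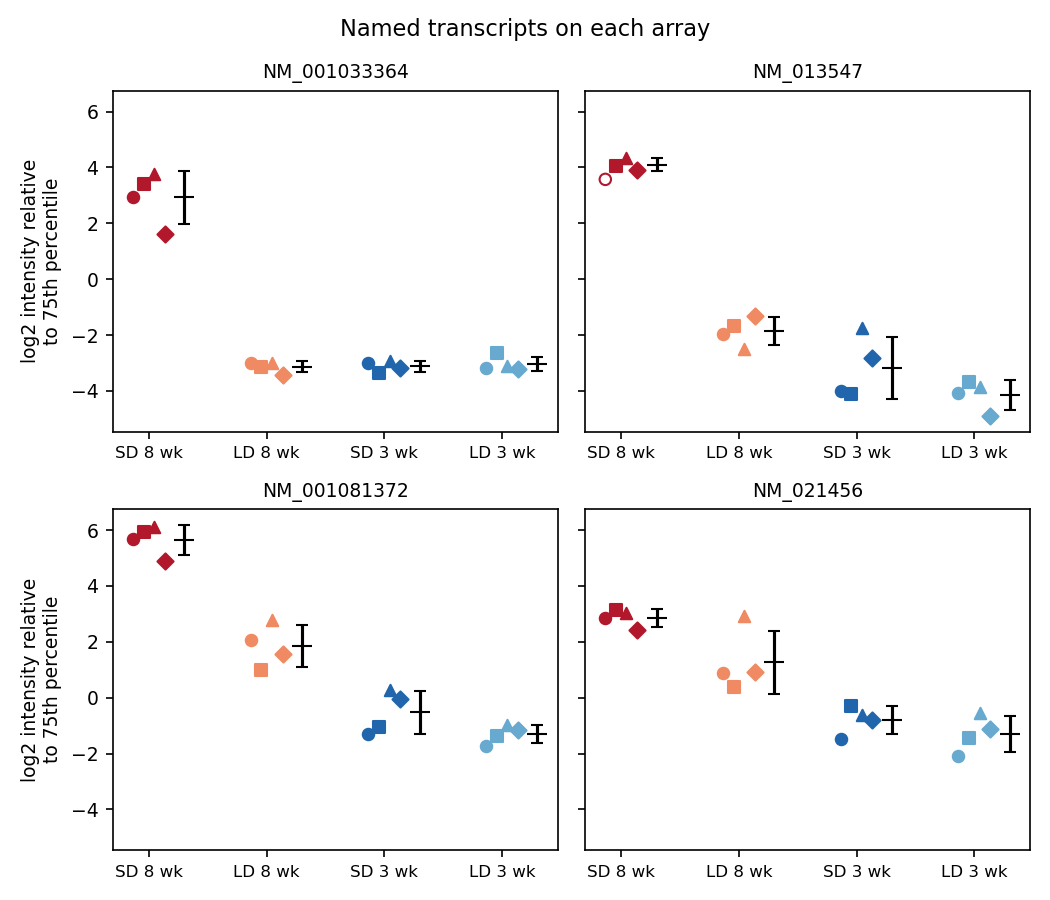
Log2 intensity relative to the 75th percentile for NM_001033364, NM_013547, NM_001081372 and NM_021456 on each array, in the 4 groups, with symbols for slides as circle (1), square (2), triangle (3) and diamond (4). Black bars give mean and SD of unflagged arrays, and the open symbol is a flagged spot outside the mean. In LD 8 wk, NM_021456 has its slide 3 array at 2.91 and the other arrays at 0.91 or below.

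The comparison of SD 3 wk with LD 3 wk asks whether day length already divided the transcripts at the earlier age, and the rule did not use it. By limma at an adjusted p under 0.05, 0 of the 165 members were called in either direction, against 0% of the 20366 identifiers, with and without the slide block. At an unadjusted p under 0.05, 7 members (4.24%) were higher and 1 was lower in SD 3 wk, and 168 (0.825%) were higher and 208 were lower of all identifiers. The lowest adjusted p was 0.9999 among members and 0.115 over all identifiers. The difference was positive in 126 members (76.4%), against 40.2% of all identifiers, with a median of 0.19 in members and -0.04 over all. Under the alternatives given below, the members' median ran from 0.07, without the LD 3 wk array of slide 1, to 0.30, without slide 2. That LD 3 wk array had the most uneven spots of all arrays (1199) and the lowest average over members (-1.70). The average over members was higher in SD 3 wk than in LD 3 wk on slides 1, 3 and 4, by 0.45, 0.46 and 0.29, and differed by -0.25 on slide 2.

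The widest difference at 3 wk among members was that of NM_007810, at -2.52 (SE 0.57, limma unadjusted p = 0.000511, adjusted p = 0.9999). Its intensity was 2.05, -0.65, 0.42 and 1.60 in SD 3 wk ovaries and 4.32, 2.64 and 3.17 on slides 2 to 4 in LD 3 wk ovaries, the slide 1 spot (2.68) being flagged. These arrays did not overlap. At 8 wk it was 5.02, 4.80, 5.75 and 4.05 in SD ovaries and 2.43, 2.87, 3.05 and 3.59 in LD ovaries. Unlike in most members, LD 3 wk was its second highest group, and its lowest was SD 3 wk.

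Members of each class of gap included some that rose in long days. The 88 members with a gap under 1.5 had a median LD age difference of 0.34, and 10 of them rose in long days. Between 1.5 and 2 the median was 0.42 with 4 of 31 risers, and between 2 and 3 it was 0.46 with 2 of 27. The 19 members with a gap of 3 or more had a median of 0.81, of which 2 rose. At 3 wk the medians over the same classes were 0.15, 0.27, 0.14 and 0.43. Over all identifiers tested, 1.84% rose in long days. The gap is a value of the rule and depends on the same group means as these differences. The classes are therefore described with no test, and no link between the gap and the rise is drawn from them.

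By the form of their identifiers the members were mostly RefSeq transcripts. RefSeq transcript numbers named 131 members (79.4%), against 68.2% of detected identifiers, and cDNA clone numbers that begin with AK named 13 (7.88%), against 14.7%. Predicted RefSeq models named 4 (2.42% against 2.49%). Other members were 2 Ensembl transcripts, 13 of other forms and 2 with a probe name alone. On the array their spots lay in all 4 parts of a 2 by 2 division, with 22.4% to 27.3% of members in each and 24.7% to 25.3% of all identifiers.

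A run of 8 consecutive RefSeq numbers held 6 of the members, a pattern chosen after the values were seen and therefore not tested. All 8 numbers are on the array and 7 were tested. The 6 had gaps of 1.11 to 4.42 (median 2.73) and SD 8 wk values 1.33 to 4.42 above LD 8 wk. The seventh was low in all groups, with means of -4.30 in SD 8 wk, -4.53 in LD 8 wk, -4.60 in SD 3 wk and -4.67 in LD 3 wk. Whether these probes share sequence, and so might read the same hamster transcript, was not tested, since probe sequences were not used here.

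Some members carry a second reading from another probe. In 31 members 33 further probes passed the detection filter. SD 8 wk was the highest group mean in 27 of the 33 and exceeded the others by at least 1 in 17, and 16 met the whole rule. In 28 of the 33 the LD age difference had the same sign as that of the brightest probe.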

How the data were processed

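Ovarian RNA of 16 hamsters was read on single-colour (Cy3) mouse arrays after amplification, per the labels' protocols. Per the file headers, the authors extracted spots with Agilent Feature Extraction 10.5.1.1, and the deposited files give a linear processed intensity per spot that had not been scaled across arrays. Flags for outlier spots, signal well above background and saturation come from the same deposited columns, with a score of 0 or 1. A value table that the authors also deposited has the same numbers, rounded, and served as an alternative.

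From these, log2 values minus each array's 75th percentile over the 43379 spots that are not controls were computed, averaging spots of a probe (41174 probes, of which 24994 were detected). Membership used all spots. The fits left out spots flagged as outliers, and identifiers needed values on 12 or more arrays, with 2 or more in every group (20366). The LD age comparison and the 3-week comparison were fitted over all 16 arrays in R 4.3.3 by limma 3.58.1, with the intensity trend of eBayes and with Benjamini-Hochberg adjustment over all 20366 and a threshold of 0.05. The script was tested on simulated data, in which arrays varied independently and slides had no effect. That test cannot show how the fit without the slide block behaves where arrays of a slide deviate together. Comparisons with SD 8 wk were used by the rule, so no test of members was made in them.

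Arrays of the same slide had deviations from their group means that correlated with a median of 0.450 (0.225 to 0.726 over 24 pairs), against -0.113 for other pairs, so the slide block is given beside the LD result. The numbers 1 to 4 are slides, and the labels give none. Samples carry different animal codes in their titles and were treated as separate hamsters. The members and the lists were chosen with earlier results of these data known. Of the rule for named transcripts only the part on size was applied: the 2 largest gaps, the 2 largest rises in long days, and the widest 3-week difference, which was chosen after its values were seen. The prepared pathway and cell type lists could not be matched, because the files pair no identifier with a symbol.

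Alternatives changed the normalization, background, filter, probe choice, trend, value table, outlier spots, slide block, arrays and slides. In the normexp background correction (offset 50, on median signals), a local background flagged as an outlier was replaced by the array's median background, as some were as bright as spots. Precision is limited by the number of arrays.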

Additional observations from a re-analysis of the deposited data

How the results depend on the processing

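Membership gave 114 to 193 transcripts under the other alternatives (165 as given), and 473 with a margin of 0.5 and 46 with a margin of 2. Normexp correction gave 124, 121 of them shared. With it, SD 8 wk had the highest mean in all 165 members and was the highest on every slide in 154. The median gap was then 1.24. Of the 88 members with a gap under 1.5, 53 met the rule with normexp, and of the 19 with a gap of 3 or more, 18 did. Normexp moved the gap of NM_013547 to 5.40. Members that rose in long days numbered 2 to 21 when slides or arrays were left out, and 33 with slide as a random block (consensus correlation 0.508). Identifiers that rose in all numbered 11 to 554 and those that fell 10 to 701 on leaving out slides or arrays. With the slide block these were 931 and 1354, with the random block 1089 and 1517, with normexp and the block 822 and 1093, and 246 rose with the percentile over averaged probes. At 3 wk, 0 or 1 identifiers were higher on leaving out slides or arrays and 1 with the random block. The LD call of NM_021456 was lost without slide 4 (2.75). The random block, normexp with the block and the percentile over probes were chosen after seeing the data. Members' medians in both comparisons kept their sign under each of the 31 alternatives. These medians ran from 0.29 to 0.54 in long days and from 0.07 to 0.30 at 3 wk. Alternatives for the comparisons with SD 8 wk and for the pathway lists were not run, because no list could be matched and the members were not tested there. Fewer arrays and slides leave fewer degrees of freedom; other causes were not tested. No replicate numbers are given by the labels, so the pairing is by slide.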
